A study of Mus musculus with 24 samples.

Results

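The repressor arm of the circadian clock was examined in plantaris muscle, a fast hindlimb muscle, of wild-type C57BL/6 mice. It comprised 6 genes taken by symbol: the period genes Per1, Per2 and Per3, the cryptochrome genes Cry1 and Cry2, and Ciart. All 6 had a row among the 47643 Ensembl genes of the deposited count table. The control group was kept in normal air (11 samples) and the exposed group breathed tobacco smoke for 16 weeks (13 samples), and both shared strain, genotype and tissue. The labels give neither age, sex nor hour of tissue collection, and do not say that each sample is a separate animal, so the p-values below measure the spread between these samples. The library kit starts from the poly(A) end of each RNA, so counts come from the last stretch of a transcript and do not scale with gene length. Values are given as CPM, the usual depth-scaled count, adjusted between libraries by the TMM method (trimmed mean of M values).

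In the mammalian clock, the transcription factors CLOCK and BMAL1 (encoded by Arntl) bind E-box sequences and switch on the period and cryptochrome genes. The PER and CRY proteins then form a complex that enters the nucleus and silences CLOCK and BMAL1, and CIART (also called CHRONO) is a further repressor that binds BMAL1. D-box sequences in some of these genes are read by the activators DBP, TEF and HLF and by the repressor NFIL3, and cAMP response elements (CRE) by CREB. Skeletal muscle has its own such oscillator, so the levels of many of these transcripts normally depend on the time of day.

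Letters matching these elements were searched in the promoters of the members. Windows are printed for Per3, the member that passed the test, for Per1, the most variable one, for Cry1, the tested member with a negative fold change, which did not pass, and for Ciart, with 3 E-boxes. The windows come from RefSeq (build GRCm38.p6), run from 250 bases before to 50 bases after an annotated start, and are written 5′ to 3′ on the strand of the gene. The table held 6 windows for 5 of the 6 members (not Per2), among them 2 for Per1. Capitals mark the motifs searched on both strands: the E-box CACGTG, its variant CACGTT, the D-box TTATGTAA, its variant TTACGTAA, the 6-letter CRE TGACGT and the 8-letter CRE TGACGTCA, which contains the 6-letter one.
Per3, minus strand, chr4:151044616-151044915: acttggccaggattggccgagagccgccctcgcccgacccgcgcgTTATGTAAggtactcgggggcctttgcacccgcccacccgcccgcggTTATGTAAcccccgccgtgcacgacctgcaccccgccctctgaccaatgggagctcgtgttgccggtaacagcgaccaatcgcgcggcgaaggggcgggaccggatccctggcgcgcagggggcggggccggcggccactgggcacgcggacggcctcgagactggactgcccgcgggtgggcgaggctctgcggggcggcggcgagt
Per1, upstream start, plus strand, chr11:69098699-69098998: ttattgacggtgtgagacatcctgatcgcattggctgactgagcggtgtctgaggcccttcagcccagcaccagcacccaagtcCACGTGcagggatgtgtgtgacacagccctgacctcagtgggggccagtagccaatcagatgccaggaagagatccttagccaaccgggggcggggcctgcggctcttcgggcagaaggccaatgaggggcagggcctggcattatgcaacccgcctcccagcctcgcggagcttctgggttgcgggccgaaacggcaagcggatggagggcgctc
Per1, downstream start, plus strand, chr11:69099902-69100201: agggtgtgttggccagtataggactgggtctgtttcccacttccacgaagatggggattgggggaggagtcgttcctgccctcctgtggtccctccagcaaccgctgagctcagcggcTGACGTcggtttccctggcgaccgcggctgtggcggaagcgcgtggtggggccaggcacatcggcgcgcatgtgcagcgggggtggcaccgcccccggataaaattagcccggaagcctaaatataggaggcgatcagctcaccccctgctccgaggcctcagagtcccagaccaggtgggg
Cry1, minus strand, chr10:85185005-85185304: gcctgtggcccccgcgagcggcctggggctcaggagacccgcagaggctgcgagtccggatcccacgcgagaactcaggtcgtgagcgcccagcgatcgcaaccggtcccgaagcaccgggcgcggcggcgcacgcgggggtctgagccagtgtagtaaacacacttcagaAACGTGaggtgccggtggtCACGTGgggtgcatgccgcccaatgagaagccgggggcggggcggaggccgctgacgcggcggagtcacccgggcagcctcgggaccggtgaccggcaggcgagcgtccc
Ciart, minus strand, chr3:95882179-95882478: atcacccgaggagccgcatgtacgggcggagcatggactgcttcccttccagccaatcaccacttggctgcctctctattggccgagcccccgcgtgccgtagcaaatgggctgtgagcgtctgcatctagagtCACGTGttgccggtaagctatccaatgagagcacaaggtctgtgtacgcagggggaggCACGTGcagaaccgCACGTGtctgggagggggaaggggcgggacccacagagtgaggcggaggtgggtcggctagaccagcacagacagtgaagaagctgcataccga

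The Per3 window held 2 copies of TTATGTAA, at positions -205 to -198 and -158 to -151 from the start. It was the only one of the 6 member windows with these exact letters. D-box forms other than TTATGTAA and TTACGTAA were not searched. The upstream Per1 window holds TTATGCAA, 1 letter away from TTATGTAA, unmarked. Of 32851 promoter windows of the same length in the table, 0.938% held TTATGTAA. The Ciart window held 3 copies of CACGTG (from -116, -58 and -44), Cry1 held 1 (from -60) and the upstream Per1 window held 1 (from -166), against 7.15% of all windows with at least 1 copy. CACGTT was found in Cry1 (from -79) and Cry2 (from -166), both on the reverse strand, against 4.68% of windows. The 6-letter CRE was found at the downstream Per1 start (from -132), against 7.51% of windows. TTACGTAA (0.119% of windows) and the 8-letter CRE (1.79%) were in none of the 6 windows. Such a match is only a description of letters in the window.

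Totals ranged from 2515697 to 4528845 counts per sample, so that 3 counts, the upper limit that a count of 0 allows, were worth 0.662 to 1.19 CPM of the unscaled total (counting error only). The 10 fast-fibre markers listed (Acta1, Ckm, Myh4 and others) took 17.4 to 27.1% of the scaled total in air and 18.3 to 23.4% in smoke, as the tissue label has it, and no marker of any of the 8 cell type lists was at 0 in all samples. Blood and Schwann cell markers moved with the group. All 5 blood markers had a negative log2 fold change and 3 were called lower, with summed levels of 486 to 1444 CPM in air and 369 to 883 CPM in smoke. All 6 Schwann cell markers had a positive one and 3 were called higher, with sums of 162 to 370.5 CPM in air and 235.2 to 943 CPM in smoke. Of the other 6 lists, covering fast and slow fibres, endothelium, fibroblasts, macrophages and adipocytes, none had a gene called by edgeR (at an unadjusted p under 0.05, 2 fast, 3 slow, 1 endothelial, 2 fibroblast, 0 macrophage and 2 adipocyte markers), and DESeq2 and limma voom each called 1, the fast myosin Myh2. In the column names the air samples and the smoke samples stand in separate runs of sample-sheet numbers, so sheet position and group cannot be told apart. The muscle was sequenced whole, so fewer cells of a type and less RNA per cell cannot be told apart.

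The 6 members covered a wide range of levels, from at most 10 counts in any library for Ciart to at least 102 in every library for Per3 and Cry2. In air the order by mean was Per3 (44.3 ± 9.54 CPM, SD, n = 11), Cry2 (39.7 ± 6.50), Per1 (15.1 ± 13.6), Cry1 (9.52 ± 2.49), Per2 (7.96 ± 4.51) and Ciart (0.461 ± 0.547). In smoke it was Per3 (60.1 ± 12.4 CPM, SD, n = 13), Cry2 (42.4 ± 6.99), Per1 (22.7 ± 10.9), Per2 (8.87 ± 3.22), Cry1 (7.44 ± 1.64) and Ciart (1.03 ± 0.952). These levels are CPM, not divided by length, because each transcript is read at its end. Neighbours in the order were compared within samples by two-sided exact sign-flip permutation tests, adjusted over 10 pairs by the Benjamini-Hochberg method. In air, Per3 and Cry2 did not differ beyond their spread (Per3 higher in 8 of 11 samples, adjusted exact p = 0.131), nor did Per1 and Cry1 (Per1 higher in 5 of 11, adjusted exact p = 0.308) or Cry1 and Per2 (Cry1 higher in 7 of 11, adjusted exact p = 0.139). In smoke, Per3 was above Cry2 and Per1 above Per2 in 13 of 13 samples (adjusted exact p = 0.00061 each), and only Per2 and Cry1 did not separate (Per2 higher in 9 of 13, adjusted exact p = 0.326).

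**Figure D1:**
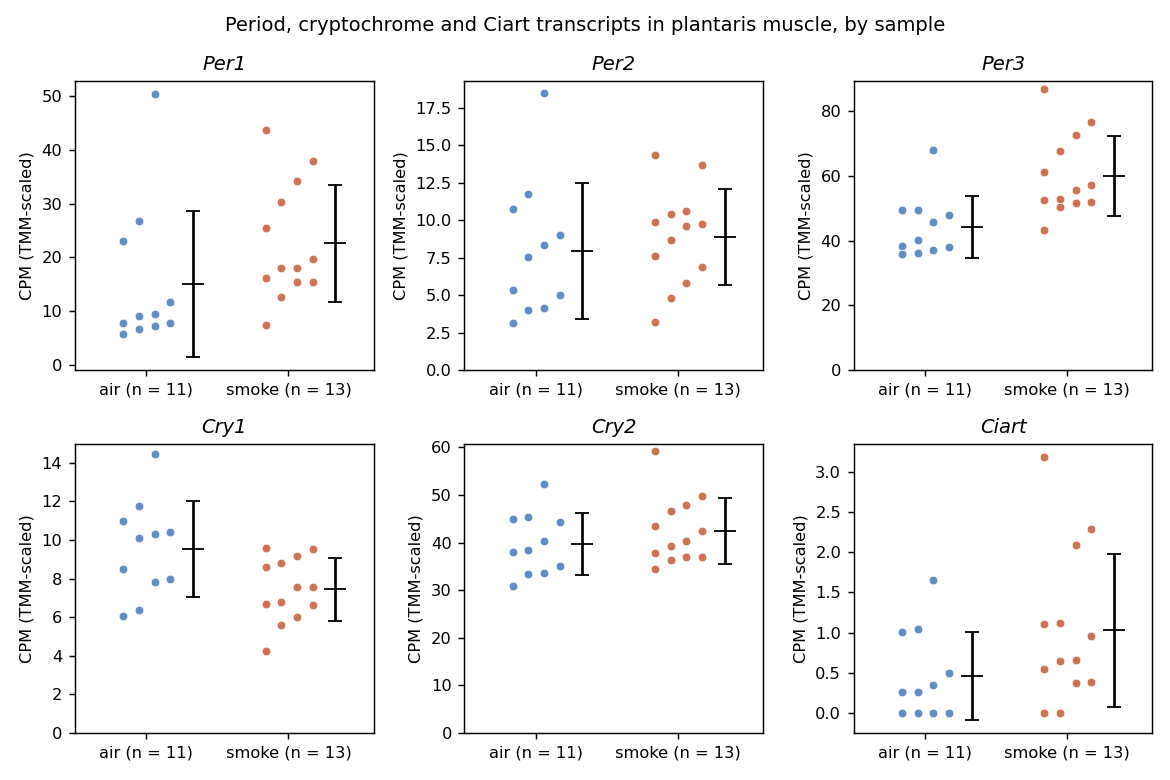
Each panel plots 1 member, with CPM on the vertical axis, 1 point per sample, and a black bar for the mean ± SD of 11 air (blue) and 13 smoke (red) samples. Per3 lies higher in smoke with overlapping ranges, 1 air sample stands far above the rest for Per1 (50.4 CPM), and Ciart lies near 0 in both groups.

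The comparison of smoke with air asks which members differ after exposure. A gene was called at a Benjamini-Hochberg adjusted p under 0.05 in edgeR's quasi-likelihood test over all 10159 genes that passed the expression filter. Of the 6 members, 5 passed the filter and 1, Per3, was called, in the direction of higher levels under smoke. The background was 1.92% of tested genes called, 0.728% higher and 1.19% lower. At an unadjusted p under 0.05 there were 2 of the 5 members, Per3 and Cry1, against 15.5% of tested genes. The ranges of the groups overlapped for each of the 6 members, and were free of overlap for 0.0295% of tested genes. The median log2 fold change of the 5 members was 0.14, against 0.0066 over all tested genes.

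Per3, a period gene whose transcript cycles strongly in peripheral tissues, rose under smoke. Air samples lay between 35.8 and 68.0 CPM with a median of 40.4 CPM, and smoke samples between 43.4 and 86.8 CPM with a median of 55.6 CPM. Of the smoke samples, 12 of 13 lay above the air mean and 3 above the highest air sample, air replicate 11, which itself stood well above the other air samples (35.8 to 49.7 CPM). The log2 fold change was 0.45 (SE 0.11), a fold of 1.36 (edgeR adjusted p = 0.0172). Each library held 113 to 314 Per3 counts. The call stood in each of the 24 fits that left out 1 sample, with log2 fold changes of 0.39 to 0.52 (edgeR adjusted p from 0.00208 to 0.0376). It did not stand with the blood marker score as a covariate (0.42, SE 0.13, edgeR adjusted p = 0.134) or with the Schwann cell marker score (0.37, SE 0.13, edgeR adjusted p = 0.185), both of which correlate with the group (r = -0.555 and 0.578 over 24 samples, as a description). The annotation has Camta1 overlapping Per3 on the same strand with no shared exon, and how reads were assigned between the 2 genes is not given in the sources used here.

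Per1, an immediate target of CREB and of the glucocorticoid receptor as well as of the clock, had a larger but far more scattered difference. In air it ranged from 5.83 to 50.4 CPM with a median of 9.04 CPM, and in smoke from 7.34 to 43.7 CPM with a median of 18.1 CPM. Air replicate 5 (50.4 CPM, 196 counts) exceeded every other sample, air replicates 11 (26.8 CPM) and 7 (23.1 CPM) came next in that group, and the other 8 air samples lay at or below 11.7 CPM. Of the smoke samples, only replicate 11 (7.34 CPM) lay within the range of those 8, and the next lowest was replicate 12 (12.6 CPM). The log2 fold change was 0.58 (SE 0.30, approximate 95% interval -0.036 to 1.20, edgeR adjusted p = 0.346), with 11 of 13 smoke samples above the air mean, and Per1 was not called. Air replicate 5 decides this: without it the log2 fold change was 0.99 (SE 0.26, edgeR adjusted p = 0.0418) and Per1 was called. Over the other fits that left out 1 sample it was not called, and the lowest log2 fold change over all 24 fits was 0.47. No label sets air replicate 5 apart from its group.

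Per2, the period gene whose protein is the main phosphorylation-timed partner of the cryptochromes, was not called. Its values ran from 3.16 to 18.5 CPM in air with a median of 7.56 CPM, and from 3.23 to 14.3 CPM in smoke with a median of 9.61 CPM. The highest value was again air replicate 5, and the smoke range lay inside the air range. The log2 fold change was 0.14 (SE 0.23, approximate 95% interval -0.34 to 0.62, edgeR adjusted p = 0.838). This interval contains both 0 and the Per3 estimate. Counts were 11 to 72 per library, and the within-group spread was wide for genes of similar level (98.5th percentile). Leaving out any 1 sample gave 0.046 (without air replicate 9) to 0.36 (without air replicate 5), and none of these fits called Per2 (edgeR adjusted p from 0.483 to 0.956).

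Cry1, whose protein is the stronger brake on CLOCK and BMAL1 in the late phase of the cycle, was the only tested member with a negative fold change. Air samples lay between 6.04 and 14.5 CPM (median 10.1 CPM) and smoke samples between 4.23 and 9.57 CPM (median 7.54 CPM). Of the smoke samples, 11 of 13 were below the air mean and 3 below the lowest air sample, while 6 air samples exceeded every smoke sample. The log2 fold change was -0.35 (SE 0.14, approximate 95% interval -0.65 to -0.056, unadjusted edgeR p = 0.0187), and the adjusted p over all tested genes was 0.205 (edgeR), so Cry1 was not called. Leaving out any 1 sample gave log2 fold changes of -0.40 to -0.28 (edgeR adjusted p from 0.137 to 0.321).

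Cry2, the second cryptochrome and the more abundant of the pair here, showed a log2 fold change close to 0. Air samples spanned 30.8 to 52.3 CPM (median 38.4 CPM) and smoke samples 34.5 to 59.3 CPM (median 40.4 CPM), and 7 of 13 smoke samples lay above the air mean. The log2 fold change was 0.098 (SE 0.090, approximate 95% interval -0.088 to 0.28, edgeR adjusted p = 0.664). Leaving out any 1 sample gave 0.049 (without smoke replicate 2) to 0.14 (without air replicate 11), with no call (edgeR adjusted p from 0.464 to 0.863). The upper bound of this interval lies below the Per3 estimate. Exons of D930015M05Rik overlap Cry2 on the opposite strand, and whether strand was used in counting is not given in the sources used here, so its level is uncertain.

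Ciart did not pass the expression filter. It had 17 counts in all over 11 air samples and 48 over 13 smoke samples, with at most 6 and 10 in a library, and 0 counts in 4 air and 2 smoke samples. In 10 air samples and 8 smoke samples the count was at or under the floor of 3, so that single values carry little weight. Levels were 0.461 ± 0.547 CPM (SD) in air and 1.03 ± 0.952 CPM (SD) in smoke, a difference of 0.567 CPM (two-sided permutation p = 0.0958), and 3 smoke samples (replicates 4, 8 and 9) exceeded the highest air sample. A difference was not shown at this depth. The annotation has C920021L13Rik overlapping Ciart on the opposite strand with no shared exon.

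Whether members responded differently from each other was tested on the difference of their log2 CPM within each sample (prior count 2). Library scaling cancels in this difference except through the prior count, which is itself scaled to library size. Of 15 pairs, 4 differed between smoke and air (two-sided permutation tests with 100000 resamples, Benjamini-Hochberg adjusted over the 15). All of them but Per3 against Cry2 hold Cry1, so they are not independent. The share of other gene pairs that differ was not computed. Per3 moved up relative to Cry1 by 0.76 ± 0.15 (SE, log2, adjusted permutation p = 0.0015) and relative to Cry2 by 0.34 ± 0.098 (SE, adjusted permutation p = 0.0103). Per1 moved up relative to Cry1 by 1.09 ± 0.34 (SE, adjusted permutation p = 0.025). These 3 held in each of the 24 analyses that left out 1 sample. Cry1 moved down relative to Cry2 by -0.42 ± 0.15 (SE, adjusted permutation p = 0.0456), which held in 12 of the 24.

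No pair of period genes passed. Per1 against Per3 gave 0.33 ± 0.32 (SE, adjusted permutation p = 0.457), Per2 against Per3 gave -0.21 ± 0.27 (SE, adjusted permutation p = 0.552), and Per1 against Per2 gave 0.54 ± 0.23 (SE, adjusted permutation p = 0.0645). Without air replicate 5, Per1 against Per3 stood at 0.56 (adjusted permutation p = 0.0581) and Per2 against Per3 at -0.053 (adjusted permutation p = 0.823). Over all 24 analyses without 1 sample the former ranged from 0.24 to 0.56 and the latter from -0.29 to -0.053, and neither passed. Per1 against Per2 passed in 6 of the 24 analyses without 1 sample. Per1 against Cry2 (0.67 ± 0.31 SE, adjusted permutation p = 0.0815) and Per2 against Cry1 (0.55 ± 0.27 SE, adjusted permutation p = 0.108) missed the threshold, and Per2 against Cry2 gave 0.13 ± 0.26 (SE, adjusted permutation p = 0.659). The last ranged from 0.0029 (without air replicate 9) to 0.24 (without air replicate 5). The 5 pairs with Ciart rest on its few counts and none passed (adjusted permutation p from 0.0645 to 0.659).

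**Figure D2:**
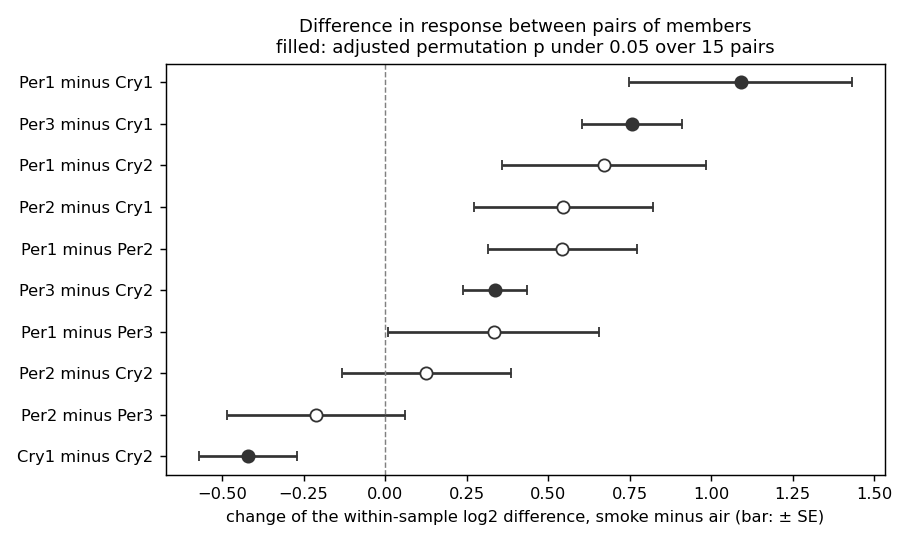
Change of the within-sample log2 difference between 2 members, smoke minus air (horizontal axis, log2 units), for the 10 pairs without Ciart, with bars of ± SE over 11 air and 13 smoke samples and filled points for an adjusted permutation p under 0.05. The filled points are Per1 minus Cry1 (1.09), Per3 minus Cry1 (0.76), Per3 minus Cry2 (0.34) and Cry1 minus Cry2 (-0.42).

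Members also differed in how much they varied among samples of the same group. The within-group SD of log2 CPM was 0.82 for Per1 and 0.63 for Per2, against a median of 0.29 over tested genes. This placed Per1 at the 99.6th and Per2 at the 98.1th percentile of all tested genes. Since low counts widen the spread, each was also placed among genes within 1.5-fold of its mean level, where Per1 stood at the 99.8th percentile of 2248 genes and Per2 at the 98.5th of 2646. Per3 (0.28) and the cryptochromes Cry1 (0.34) and Cry2 (0.22) lay at the 88.3th, 45.0th and 69.7th percentiles of genes of similar level. These percentiles are descriptions of the libraries and were not tested.

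**Figure D3:**
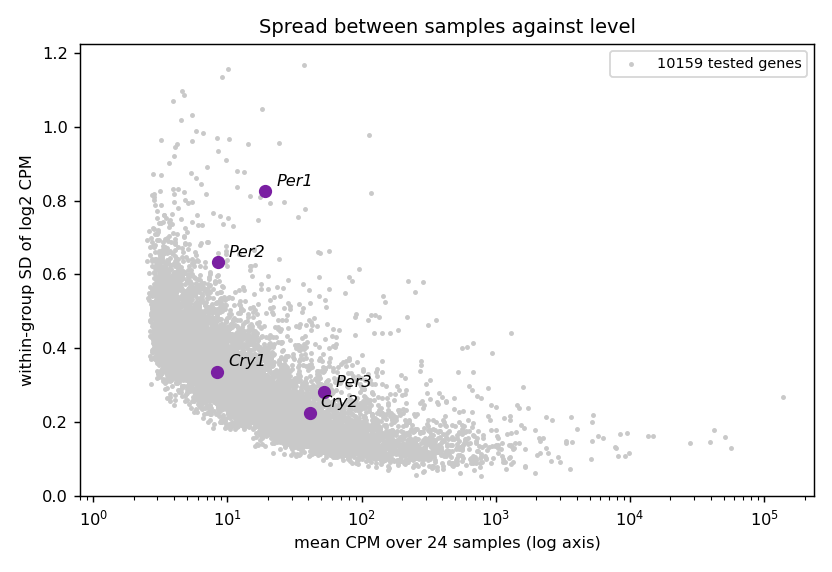
Within-group SD of log2 CPM (vertical axis) against mean CPM over 24 samples (log axis) for 10159 tested genes (grey) and the 5 tested members (purple). Per1 (0.82) and Per2 (0.63) lie above nearly all genes of their level, while Cry1 (0.34), Cry2 (0.22) and Per3 (0.28) lie within the cloud.

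To see whether the members varied together from sample to sample, log2 CPM was correlated within each group for the 15 pairs of members and for each member with Arntl and Dbp, 54 relations in all, with permutation p-values adjusted over them. Between members, only Per1 with Per2 passed, in smoke and by r alone. In smoke (n = 13) their Pearson's r was 0.747 (adjusted permutation p = 0.0319) and Spearman's rho 0.533 (adjusted permutation p = 0.241). Leaving out the pair of samples most distant from the Per1 median brought r to 0.462, so the relation leans on them. In air (n = 11) r was 0.754 (adjusted permutation p = 0.0554), rho 0.70 (adjusted permutation p = 0.19) and r 0.655 without 2 samples. None of the other 28 relations between members passed (adjusted permutation p of r from 0.0619 to 0.973), and no pair holding Cry1 had an r above 0.414.

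With the partner genes, 3 relations passed by both r and rho. Per2 was lower where Arntl, the gene of BMAL1, was higher in air (n = 11, r = -0.845, adjusted permutation p = 0.0278, rho = -0.891, adjusted permutation p = 0.0181, and r = -0.797 without 2 samples). Per3 was lower where Arntl was higher in smoke (n = 13, r = -0.768, adjusted permutation p = 0.0319, rho = -0.786, adjusted permutation p = 0.0298, and r = -0.828 without 2 samples). Per1 was higher where Dbp, a D-box activator driven by the clock, was higher in smoke (n = 13, r = 0.782, adjusted permutation p = 0.0278, rho = 0.769, adjusted permutation p = 0.0357, and r = 0.569 without 2 samples). In air, Per1 and Dbp gave r = 0.81 (adjusted permutation p = 0.0319) and rho = 0.591 (adjusted permutation p = 0.241), and r = 0.669 without 2 samples. By rho alone, Per1 with Arntl in air (n = 11, rho = -0.882, adjusted permutation p = 0.0181, and r = -0.756, adjusted permutation p = 0.0619) and Ciart with Dbp in smoke (n = 13, rho = 0.791, adjusted permutation p = 0.0298, and r = 0.70, adjusted permutation p = 0.0563) also passed. The counterparts of the Arntl relations were weaker in size, with r = -0.293 for Per2 in smoke (adjusted permutation p = 0.602) and r = -0.514 for Per3 in air (adjusted permutation p = 0.389). Arntl had only 3 to 65 counts per library. Whether any of these relations differed between the groups was not tested.

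**Figure D4:**
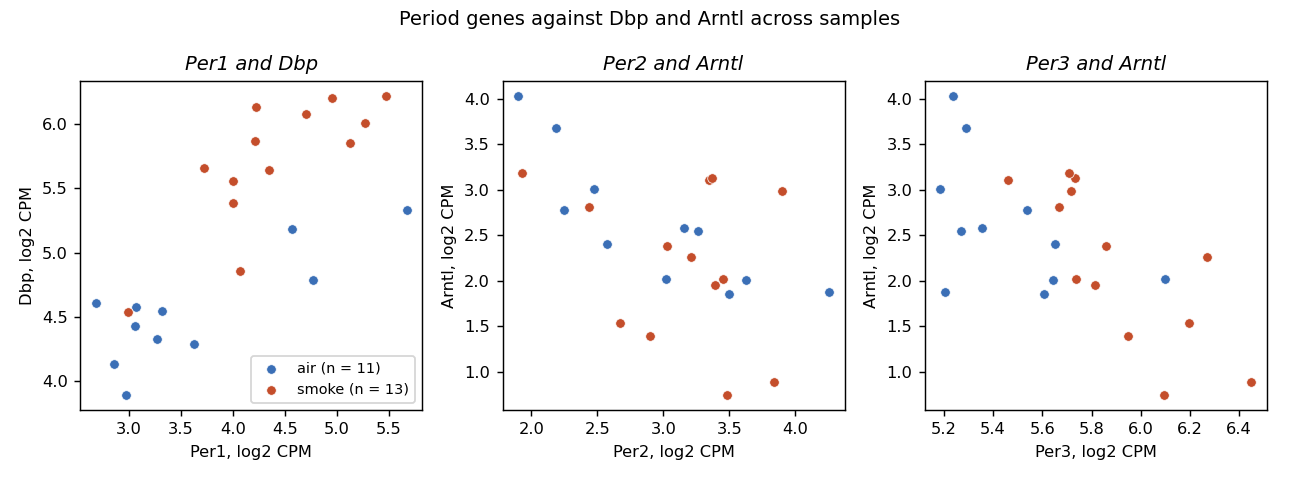
Log2 CPM of Per1 against Dbp, Per2 against Arntl and Per3 against Arntl, 1 point per sample, for 11 air (blue) and 13 smoke (red) samples. Per1 and Dbp rise together in both groups with smoke samples shifted to higher Dbp, and the Arntl panels slope downward for Per2 in air (r = -0.845) and for Per3 in smoke (r = -0.768).

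The genes with the most similar pattern were, for each member, the 3 tested genes with the highest Pearson's r of deviations from the group means over 24 samples, given without a test since they are the extremes of 10159 genes. For Per1 they were Usp2 (r = 0.782), a deubiquitinating enzyme under clock control, Slc25a25 (0.772), a mitochondrial carrier, and Dbp (0.769). For Per2 they were Pde4d (0.81), a phosphodiesterase that degrades cAMP, Irf2bp1 (0.802) and Per1 itself (0.751). Per3 was closest to Gm19891 (0.781), Arl6ip4 (0.756) and Ddx24 (0.751). Cry1 was closest to Gm12224 (0.711), Tubb4b (0.701) and Med9 (0.683), and Cry2 to Naca (0.765), Abcf1 (0.692) and Cacna1a (0.692). Usp2 itself was not called (0.090 on the log2 scale, edgeR adjusted p = 0.753).

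**Figure D5:**
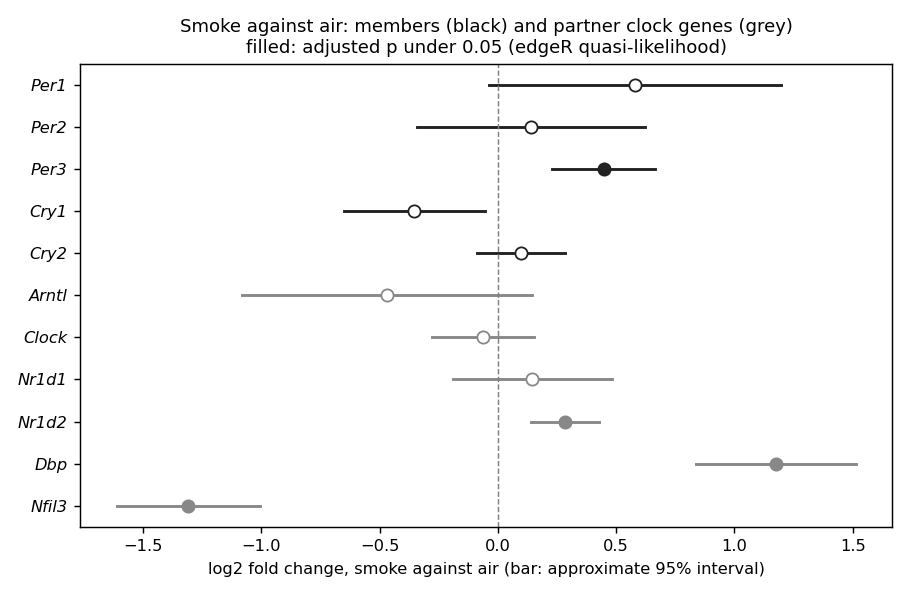
Log2 fold change of smoke against air (horizontal axis) with approximate 95% intervals for the 5 tested members (black) and 6 partner genes of the clock (grey), filled where the edgeR adjusted p was under 0.05. Per3 (0.45), Nr1d2 (0.28) and Dbp (1.18) are filled on the right and Nfil3 (-1.31) on the left, while Per1, Per2, Cry1, Cry2, Arntl, Clock and Nr1d1 are open.

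The rest of the pathway was read from lists, beside all tested genes, of which 5244 of 10159 had a positive log2 fold change with a median of 0.0066. Of the 4 activators that the members repress, Arntl and Clock were tested and neither was called (0 at an unadjusted p under 0.05 by edgeR), with Arntl averaging 6.37 ± 4.10 CPM (SD) under air and 4.68 ± 2.73 under smoke (log2 fold change -0.47, SE 0.30, edgeR adjusted p = 0.48) and Clock at 21.0 ± 3.10 and 20.1 ± 4.17 CPM (-0.062, SE 0.10, edgeR adjusted p = 0.842). Leaving out 1 sample moved Arntl to between -0.58 (without smoke replicate 7) and -0.23 (without air replicate 9, its highest sample at 15.8 CPM), and Clock to between -0.11 (without smoke replicate 2) and -0.026 (without air replicate 4), with no call. Npas2, a paralogue of Clock, did not pass the filter (0.586 ± 0.412 CPM under air, 0.546 ± 0.587 under smoke, SD), nor did Arntl2. In the nuclear receptor loop, which sets the level of Arntl, 4 of 5 genes were tested, all 4 had a positive fold change and 1 was called. This was Nr1d2, the gene of REV-ERB beta, at 0.28 (SE 0.069, edgeR adjusted p = 0.0216), whereas Nr1d1 gave 0.15 (SE 0.16, edgeR adjusted p = 0.729). Air replicate 5 was the lowest sample for Nr1d1, at 3.34 CPM, and without it the Nr1d1 log2 fold change was 0.029 (edgeR adjusted p = 0.946). Nr1d2 was called in each of the 24 fits without 1 sample (0.26 to 0.32).

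The 4 D-box factors were all tested, with 1 called higher and 1 lower. Whether they act on any of the printed windows was not tested. The activator Dbp rose by 1.18 on the log2 scale, from a median of 22.8 to one of 57.1 CPM (edgeR adjusted p = 4.87e-05), and the repressor Nfil3 fell by 1.31, from a median of 26.4 to one of 9.26 CPM (edgeR adjusted p = 1.31e-06), while Tef (0.050) and Hlf (-0.025) were not called. Of the 3 E-box repressors outside the members, Bhlhe40 was called at 0.44 (edgeR adjusted p = 0.00105), and Bhlhe41 (0.37, edgeR adjusted p = 0.155) and Cipc (0.0097) were not. Among the kinases, phosphatases and ubiquitin-pathway genes that act on PER and CRY proteins, 22 of 24 were tested, 14 had a positive fold change, and 0 were called (0 also at an unadjusted p under 0.05 by edgeR, median log2 fold change 0.029). Of the partners of the PER and CRY complex, 13 of 15 were tested and 0 were called (0 at an unadjusted p under 0.05 by edgeR, median 0.067).

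Genes of the glucocorticoid and CREB signals that induce Per1 and Per2 gave 13 tested of 16, with 0 called and 3 at an unadjusted p under 0.05 by edgeR (median log2 fold change 0.034). These 3 pointed in both directions: Fkbp5 at 0.40 (edgeR adjusted p = 0.114), Klf9 at 0.17 (edgeR adjusted p = 0.263) and Zbtb16 at -0.38 (edgeR adjusted p = 0.114). DESeq2 and limma voom also called 0 genes in the activator, kinase and turnover, partner, and glucocorticoid and CREB lists, and called Nr1d2, Dbp, Nfil3 and Bhlhe40 as edgeR did. Exons of Sphk2 overlap Dbp and exons of Thra overlap Nr1d1 on the opposite strand, so both levels are uncertain.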

How the data were processed

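The deposited table holds unnormalized whole-number counts for each Ensembl gene, 1 column per sample, made from QuantSeq libraries per the labels' protocols. The submitters' processing notes name STAR, DESeq2 and mm9 without versions or roles. The counting tool, annotation and use of strand are not given in the sources used here. Every column was read on a single lane, per the file headers.

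Symbols were matched to GENCODE M21 for 47224 of 47643 IDs (99.1%). Promoter letters are from RefSeq (GRCm38.p6), not the build named in the notes, and no coordinate was converted. Counts were tested with edgeR 4.0.16 in R 4.3.3 (filterByExpr with a minimum count of 10, TMM, glmQLFit and glmQLFTest, 24 samples, no covariates), and p-values were adjusted over all 10159 genes tested. The SE is the log2 fold change divided by the square root of F, and intervals are approximate. CPM uses the total over tested genes. Log2 CPM has a prior count of 2. The edgeR and permutation code was tested on simulated data. Members, lists and tests were chosen with earlier results of these data known. Named were the 6 members, all called genes of the pathway lists with Arntl, Clock, Npas2, Nr1d1, Nr1d2, Dbp and Nfil3, and the 3 nearest genes per member. Other genes (Tef, Hlf, Bhlhe41, Cipc, Usp2 for its fold change, Fkbp5, Klf9, Zbtb16 and cell type markers) were named after their values were seen.

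As a check for libraries deposited more than once, counts of same-group samples were compared in 133 pairings. Chi-square averaged 2.33 to 16 per gene, above sampling noise, and no samples were merged. Same-numbered samples in both groups did not deviate together (mean r = -0.0059 over 11 pairs, 4 above 0.1). Alternatives were other scalings, no filter, omission of the 10 most abundant genes, 1 surrogate variable, a replicate block, another prior count, omission of each sample, and other tools. Marker-score covariates and pairwise tests without each sample were added after seeing the data. The other tools were DESeq2 1.42.0, limma 3.58.1 and sva 3.50.0.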

Additional observations from a re-analysis of the deposited data

How the results depend on the processing

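The 5 tested members kept their direction and their side of the threshold under RLE and upper-quartile scaling, no filter, omission of the 10 most abundant genes, DESeq2, limma voom and 1 surrogate variable. DESeq2 called 318 genes, 208 of them lower, against 195 and 121 by edgeR. With the blood score as a covariate 56 genes were called (18 higher, 38 lower) and 0 members higher, with Per3 at 0.42. With the Schwann cell score 70 were called (21 higher, 49 lower) and 0 members higher, with Per3 at 0.37. Both covariates were chosen after seeing the data, and the cause of the lost calls was not tested.

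Without 1 sample, 47 to 103 genes were called higher (47 without air replicate 3), 1 to 2 members were called higher, and Per1 ranged from 0.47 to 0.99 (2 and 0.99 without air replicate 5). Differences in response ranged from -0.50 to -0.37 for Cry1 against Cry2, from 0.45 to 0.65 for Per1 against Per2, from 0.56 to 0.86 for Per1 against Cry2, from 0.46 to 0.67 for Per2 against Cry1 and from -1.04 to -0.76 for Cry1 against Ciart, each passing in some of the 24 analyses. Per1 against Ciart turned from 0.20 to -0.21 with a prior count of 0.5, and neither value passed.

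The replicate numbers share only a number. With them as a replicate block over 22 samples, 138 genes were called, Per3 stood at 0.47 (edgeR adjusted p = 0.0343) and no member's call changed. Depth limits Ciart most, at 0 to 10 counts per library, then Cry1 and Per2.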
